A study of Mus musculus with 40 samples.

Results

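The lamin B receptor LBR is a protein of the inner nuclear membrane. Its nucleoplasmic part binds heterochromatin and B-type lamins, and its membrane part is a sterol reductase, an activity of cholesterol synthesis that it shares with the enzyme encoded by Tm7sf2. Together with A-type lamins LBR is known for holding heterochromatin at the nuclear periphery. The data described here are total RNA sequencing of mouse embryonic stem cells (mES cells) in which Lbr was disrupted (LBRKO) and of wild-type (WT) cells, all in naive pluripotency, the state of the preimplantation epiblast.

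The libraries were chosen by their labels and number 12 of the 40 in the series: 4 of LBRKO and 8 of WT mES cells. All were XY cells of the same WT line, with or without the disruption, grown without serum or feeders in medium with 3 µM CHIR99021 (an inhibitor of GSK3, which turns on WNT signalling), 1 µM PD0325901 (an inhibitor of MEK, which blocks ERK signalling) and LIF, and harvested at 48 h. LBRKO cells carried frameshift indels in Lbr and no other engineered change. Several LBRKO clones were derived, and the labels do not say which clone a library came from. Each library came from a well of its own, so that p-values rest on the spread between wells within the fitted groups. Where all WT libraries share a mean, that spread includes a difference between sets of WT libraries, described below. Any difference between LBRKO clones would be included too. Spread between independent lines of a genotype is not measured. Part of the WT line is known to lack the Y chromosome, some of it with a gain of chromosomes 6 and 8. For comparison the text also uses cells of a littermate line without lamins (TKO, with Lmna, Lmnb1 and Lmnb2 deleted). TKO cells are known to carry a gain of chromosome 8, and part of them to lack the Y chromosome. A single clone of TKO in which Lbr was disrupted as well (QKO) is used too. The QKO clone carried a frameshift deletion and an in-frame deletion in Lbr. Also used are LBRKO and WT epiblast-like cells (EpiLCs), harvested at 48 h in medium containing FGF (20 ng/mL) and activin A (12 ng/mL).

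Cas9 was directed to exon 2 of the 14 exons of Lbr, which holds the start codon and lies on the minus strand of chromosome 1 (GRCm39). The guide was placed over a SacI site, so that an indel removes the site. The coding part of that exon (chr1:181665943-181666107, 165 bases) is shown because every LBRKO library derives from a cut in it, with the only SacI site (GAGCTC, from base 54) in capitals.
Lbr exon 2, coding part, 5′ to 3′: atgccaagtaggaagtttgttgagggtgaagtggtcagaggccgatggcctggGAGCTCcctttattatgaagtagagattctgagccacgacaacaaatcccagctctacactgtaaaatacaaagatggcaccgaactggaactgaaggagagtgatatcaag

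Lbr RNA itself checks the labels. In CPM (counts per 1e+06 counts of the TMM-adjusted library size), Lbr ran from 346.7 to 407 in the 8 WT libraries, with a median of 375. It was at 274, 253, 145 and 162 in LBRKO libraries 1 to 4. Every LBRKO library lay below every WT library, and libraries 3 and 4 lay below libraries 1 and 2. The log2 fold change against all WT was -0.83 ± 0.14 (SE; edgeR, adjusted p = 8.58e-06) and within 2-fold, and a frameshift need not remove the RNA. On the lamin-null background Lbr averaged 353 CPM without lamins (TKO), and QKO averaged 237 CPM (log2 -0.57, edgeR, adjusted p = 0.0058). The naive markers Esrrb and Nanog, transcription factors of the ground state, were at 840 to 958 CPM and 638 to 665 CPM in LBRKO, and Pou5f1, the core pluripotency factor, was at 354 to 376 CPM, so the LBRKO libraries carried the RNA of the labelled cell type.

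Total gene counts per library were 39.7 to 48.0 M (M, 1e+06 counts) in LBRKO, 27.7 to 33.1 M in WT libraries 1 to 4 and 39.4 to 46.6 M in WT libraries 5 to 8, which share the depth of LBRKO. Each comparison was therefore made against all 8 WT libraries and against WT 5 to 8. The WT sets were not alike: 940 of 23399 genes tested (4.02%) differed between WT 1 to 4 and WT 5 to 8 by the rule used throughout (edgeR, Benjamini-Hochberg adjusted p under 0.05 and a fold over 2, called changed here), 436 of them higher (1.86%) and 504 lower (2.15%) in WT 1 to 4. Pearson correlations between log2 counts, not scaled for depth, of all pairs of the 12 libraries ran from 0.976 to 0.989. On the first principal component, which held 35.6% of the variance, WT 7 lay at 39.7 and the other WT libraries between -55.9 and -4.56, while LBRKO 2 lay at 14.9 and the other LBRKO libraries between 48.6 and 72.6.

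Against all WT, 1477 genes changed in LBRKO mES cells (6.31%), 716 higher (3.06%) and 761 lower (3.25%), with a median log2 fold change of 0.02 over all genes tested. Against WT 5 to 8 there were 1247 (5.33%), 599 higher (2.56%) and 648 lower (2.77%), with a median of 0.01. WT 1 to 4 alone gave 2574 (11%), 1322 higher (5.65%) and 1252 lower (5.35%). Changed the same way against all WT and against WT 5 to 8 were 923 genes (3.94%), 389 higher genes, 54.3% and 64.9% of the respective lists, and 534 lower genes, 70.2% and 82.4%. No gene changed in opposite directions. At any fold, the libraries of LBRKO and WT did not overlap for 3273 genes (14%) against all WT and 5125 (21.9%) against WT 5 to 8, and 837 genes (3.58%) both changed and did not overlap with any WT library. Both comparisons use WT 5 to 8, so the shared genes are not independent support. Leaving out LBRKO 2 raised the count of lower genes against all WT to 1149, from 761.

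The lower genes held the steeper changes. Of the genes lower in LBRKO 96 changed by more than 8-fold and 238 by more than 4-fold, against 5 and 74 of the higher genes. Pseudogenes made up 15.9% of lower genes, 3.07% of higher genes and 12.4% of all genes tested, and protein-coding genes 71.0%, 68.9% and 66.1%. Many changed genes were weakly expressed: the median level in the higher group was 1.09 CPM for higher genes, 0.928 CPM for lower genes and 3.26 CPM for all genes. In bulk RNA, fewer cells that express a gene and less RNA per cell cannot be told apart.

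**Figure D1:**
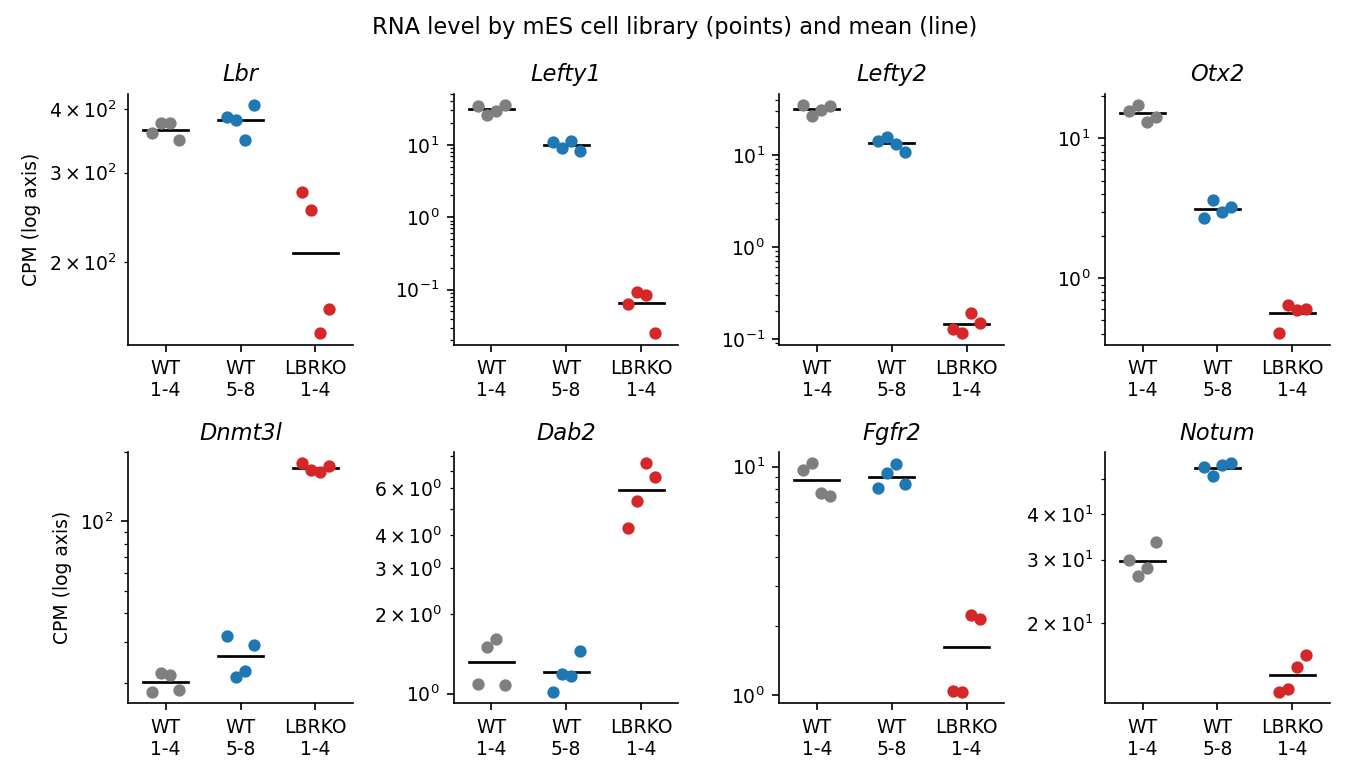
CPM by library (log axis) of genes the text turns on, in WT mES replicates 1 to 4, WT 5 to 8 and LBRKO. Each point is a library; Lefty1 and Lefty2 lie at 0.0250 to 0.191 CPM in LBRKO, below all WT libraries, and Dnmt3l lies at 164 to 178 CPM, above them.

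Among the genes ranked by fold below, the steepest decrease was in the Nodal pathway. Nodal is a ligand of the TGF-β family that signals through activin receptors and SMAD2 and SMAD3, and it turns on its own antagonists Lefty1 and Lefty2, secreted factors that limit its range. Both Lefty genes lie on chromosome 1 in the same 2 Mb as Lbr (Lefty1 at chr1:180762587-180765965 and Lefty2 at chr1:180720673-180726668, both on the plus strand). Of 5 ligands and antagonists tested, both Lefty genes were lower and none higher in either comparison (median -0.40 against all WT).

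Lefty1 ran from 8.29 to 35.6 CPM in WT, with a median of 18.7, and from 8.29 to 11.3 in WT 5 to 8. It was at 0.0639, 0.0920, 0.0849 and 0.0250 CPM in LBRKO. The groups did not overlap, and WT 5 to 8 lay in the lower part of the WT range. The log2 fold change was -8.16 ± 0.61 against all WT (edgeR, adjusted p = 6.56e-14) and -7.12 ± 0.41 against WT 5 to 8 (adjusted p = 4.04e-17). Lefty2 ran from 10.8 to 35.1 CPM in WT (median 21.1), and was at 0.128, 0.115, 0.191 and 0.150 CPM in LBRKO, again with no overlap. Its log2 fold change was -7.22 ± 0.35 (adjusted p = 1.3e-19), and -6.48 ± 0.18 against WT 5 to 8 (adjusted p = 2.24e-27).

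Nodal itself, on chromosome 10, was less affected. It ran from 73.3 to 88.1 CPM in WT and was at 63.1, 61.1, 67.8 and 55.3 CPM in LBRKO, so the groups did not overlap, but the difference of -0.40 ± 0.06 on the log2 scale (edgeR, adjusted p = 4.35e-06) was within 2-fold. The 12 receptors and transducers tested had medians of -0.03 and -0.01. Skil, which encodes a feedback inhibitor of SMADs, had a log2 fold change of -0.51, and Foxh1, a DNA-binding partner of SMADs, of 0.32, both within 2-fold.

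Both Lefty genes were far less affected in EpiLCs. There Lefty1 was at a mean of 75.5 CPM in WT and 48.8 CPM in LBRKO (log2 -0.63, edgeR, adjusted p = 0.0938), and Lefty2 at 31.2 and 25.9 CPM (log2 -0.27). The effect of LBR loss differed between the stages by 7.54 on the log2 scale for Lefty1 and by 6.96 for Lefty2 (edgeR interaction term, adjusted p = 7.43e-11 and 9.66e-17). On the lamin-null background, Lefty1 averaged 6.11 CPM in QKO against 18.4 CPM in TKO (log2 -1.60, adjusted p = 0.00093), and Lefty2 24.3 against 25.7 CPM (log2 -0.08, adjusted p = 0.837). Whether the effect of Lbr disruption differed between the backgrounds was not tested.

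Genes around Lbr were examined because the Cas9 cut lies on the same chromosome as the Lefty genes. Within 2 Mb of Lbr 55 genes were tested, 33 of them protein coding. Against all WT 4 were higher and 5 lower (median 0.00), and against WT 5 to 8 there were 2 and 4 (median -0.05). The 5 genes lower against all WT lay in the 127.797 kb from Lefty2 to Ephx1. Of 6 genes tested there, 5 were lower against all WT and 4 against WT 5 to 8. The stretch was bounded by lower genes, so these counts do not test whether lower genes cluster. This stretch starts 949.938 kb from the start of Lbr and lies downstream of its end, since Lbr is read toward it.

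The lncRNA gene Gm57186 overlaps Lefty2 on the other strand and ran from 0.355 to 1.14 CPM in WT, against 0.0426, 0, 0 and 0.0250 CPM in LBRKO. As the strand setting of the counting is not given in the sources used here, its reads cannot be told apart from those of Lefty2. Tmem63a, which encodes an ion channel opened by stretch, ran from 2.69 to 5.69 CPM in WT (median 4.08), and was at 0.916, 1.70, 1.57 and 1.75 CPM in LBRKO. Its log2 fold change was -1.45 ± 0.17 (edgeR, adjusted p = 1.29e-08), and -1.02 ± 0.14 against WT 5 to 8, a call lost without LBRKO 1 (-0.86), WT 6 (-1.0) or WT 7 (-0.98). Ephx1, a xenobiotic epoxide hydrolase, ran from 7.15 to 17.2 CPM in WT (median 11.2) and was at 5.13, 5.40, 5.43 and 5.33 CPM in LBRKO (log2 -1.12 ± 0.19, adjusted p = 8.8e-06), but against WT 5 to 8 the difference was -0.61 ± 0.15 and within 2-fold.

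The 4 higher genes, Capn2, Susd4, Tlr5 and Gm37069, lay on the other side of Lbr. Capn2, which encodes the catalytic subunit of the protease calpain 2, lies at chr1:182294825-182345173. It ran from 15.4 to 17.7 CPM in the 8 WT libraries and was at 38.1, 37.9, 38.1 and 38.3 CPM in LBRKO, a spread in both groups far smaller than the gap. Its log2 fold change was 1.18 ± 0.07 (edgeR, adjusted p = 2.58e-16), 1.16 ± 0.07 against WT 5 to 8, and -0.04 between QKO and TKO. Susd4, a complement regulator, ran from 2.27 to 4.61 CPM in WT and was at 7.11, 7.03, 6.94 and 7.63 CPM in LBRKO (log2 1.08 ± 0.12, adjusted p = 6.56e-09), a call lost against WT 1 to 4 alone (0.86). Tlr5, the receptor for flagellin, was at 1.88 to 2.5 CPM in LBRKO and 0.229 to 1.62 CPM in WT (1.11 ± 0.35, adjusted p = 0.0179). The Tlr5 call was lost against WT 5 to 8 (0.50), with only the 12 libraries fitted (1.10), and without LBRKO 3 (1.03), WT 2 (0.99) or WT 4 (0.97). Gm37069 lies within Capn2 on the other strand, at no more than 0.341 CPM (1.38), and its call was lost against WT 5 to 8 (1.20), with no filter on low counts (1.37) and without LBRKO 1 (1.0). Enah, the neighbour of Lbr, was at 186 to 220.3 CPM in LBRKO and 280.1 to 341 in WT (log2 -0.60 ± 0.08), and Nvl, Wdr26, Srp9 and Parp1, also within the 2 Mb, had log2 fold changes between -0.07 and 0.01. In QKO against TKO 4 of the 55 genes changed.

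**Figure D2:**
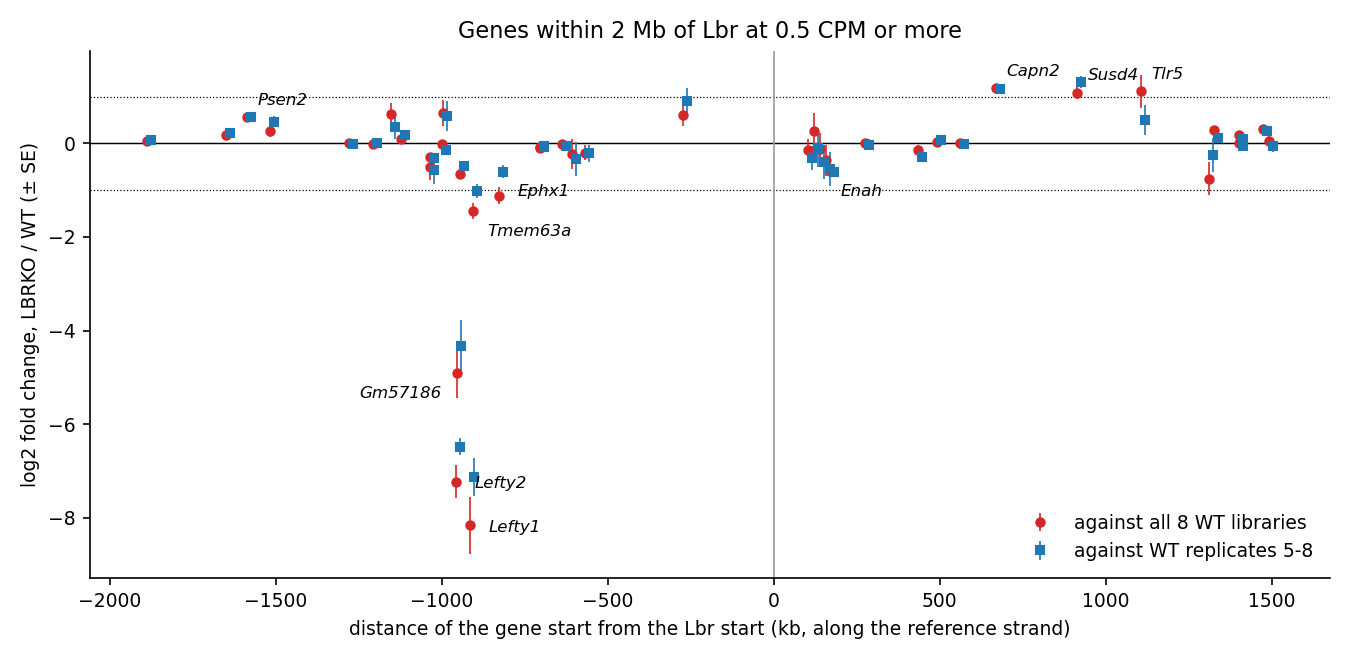
Log2 fold change in LBRKO of genes within 2 Mb of Lbr at 0.5 CPM or more, by distance of its start from the start of Lbr (kb), against all WT and against WT 5 to 8. Lefty1 and Lefty2 lie at -8.16 and -7.22, 908.024 and 949.938 kb from Lbr, and Capn2 lies at 1.18, 674.562 kb away on the other side.

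WNT ligands stabilise β-catenin, and the GSK3 inhibitor in the medium does the same in both genotypes. Of 16 genes of the pathway tested, 5 were higher and 1 lower against all WT (median 0.82), and 2 were higher and 1 lower against WT 5 to 8 (median 0.28). The lower gene was Notum, a secreted enzyme that inactivates WNT ligands. It ran from 27.0 to 55.3 CPM in WT, with a median of 42.3 and 51.0 to 55.3 in WT 5 to 8, and was at 12.9, 13.2, 15.1 and 16.3 CPM in LBRKO. The groups did not overlap and the log2 fold change was -1.54 ± 0.19 (edgeR, adjusted p = 3.49e-08), or -1.90 ± 0.13 against WT 5 to 8 (adjusted p = 2.46e-14). Another feedback inhibitor moved the other way: Nkd1, an intracellular antagonist of Dishevelled, ran from 1.19 to 3.12 CPM in WT (median 2.17), and was at 7.39, 6.35, 7.19 and 6.68 CPM in LBRKO (log2 1.61 ± 0.14, adjusted p = 1.24e-11, and 1.34 ± 0.14 against WT 5 to 8). Wnt6, a ligand, was at 2.64, 2.60, 1.99 and 2.68 CPM in LBRKO and 0.609 to 1.74 in WT (1.25 ± 0.26, adjusted p = 0.00023).

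Other targets of the pathway followed the split between the WT sets. Cdx1, a homeobox target of WNT, ran from 10.7 to 46.0 CPM over all WT, but from 41.4 to 46.0 in WT 5 to 8, and was at 64.8, 73.8, 72.0 and 72.5 CPM in LBRKO. LBRKO lay above every WT library, with a log2 fold change of 1.31 ± 0.25 against all WT (edgeR, adjusted p = 8.8e-05) and 0.67 against WT 5 to 8. Axin2, the classic feedback target, ran from 41.8 to 129 CPM in WT and was at 149, 138, 132 and 131 CPM in LBRKO, a difference of 0.78 ± 0.19 against all WT and 0.26 against WT 5 to 8, both within 2-fold. Rnf43, a ubiquitin ligase that removes WNT receptors, went from 1.32 ± 0.32 to 0.80 in the same way. The ligand Wnt8a, at up to 0.551 CPM, changed against all WT (1.23, adjusted p = 0.027) but not against WT 5 to 8 (0.59) or without LBRKO 3 (1.21), LBRKO 4 (0.99), WT 2 (1.09) or WT 3 (1.08). Lef1 and Tcf7, transcription factors of the pathway, had log2 fold changes of 0.18 and 0.29.

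Of 14 genes of BMP signalling, 1 was higher and none lower in each comparison (medians 0.19 and 0.22), and the gene was not the same. Bmp4, a ligand, ran from 1.75 to 12.7 CPM in WT and from 9.48 to 12.7 in WT 5 to 8, and was at 15.0, 15.4, 21.2 and 18.5 CPM in LBRKO. Its log2 fold change was 1.38 ± 0.32 against all WT (edgeR, adjusted p = 0.00099) and 0.63 against WT 5 to 8, and the call was also lost when only the 12 libraries were fitted. Msx1, a homeobox target, was at 1.21, 1.84, 1.29 and 1.20 CPM in LBRKO and 0.457 to 0.859 in WT 5 to 8 (1.13 ± 0.27, adjusted p = 0.0018), a call lost without LBRKO 2 (0.94) or WT 7 (0.98). Id3, an inhibitor of basic helix-loop-helix factors that responds to BMP, varied most, from 6.57 to 96.5 CPM in WT and 18.1 to 103 CPM in LBRKO, with the groups overlapping.

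In the FGF and ERK pathway, which the MEK inhibitor holds down, 1 of 18 genes was higher and 2 were lower in each comparison (medians 0.50 and 0.36). The higher gene was not the same: it was Spry4 against all WT and Fgfr3 against WT 5 to 8. Fgfr2, the FGF receptor of the primitive endoderm lineage, ran from 7.43 to 10.3 CPM in WT, with a median of 8.86. It was at 1.04, 1.03, 2.25 and 2.15 CPM in LBRKO, far below every WT library, with LBRKO 1 and 2 lowest. The log2 fold change was -2.45 ± 0.18 (edgeR, adjusted p = 2.27e-14), and -2.47 ± 0.18 against WT 5 to 8. Fgfr2 was lower in QKO than in TKO too, at means of 0.450 and 1.84 CPM (log2 -2.01, adjusted p = 7.8e-08). In EpiLCs it was at 12.2 CPM in LBRKO and 9.14 CPM in WT (log2 0.42), and the effect differed between the stages by 2.87.

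Fgf4, the main FGF ligand of naive cells, ran from 192 to 321 CPM in WT and was at 185, 186, 147 and 152 CPM in LBRKO (log2 -0.67 ± 0.11, edgeR, adjusted p = 6.5e-06), without overlap and within 2-fold. Fgf5, a ligand of the primed state, was at 0.0226 to 0.194 CPM in WT and had no count in any LBRKO library, so that it was at least 5.61-fold lower (floor of 3 counts over the 4 libraries). Spry2, a feedback inhibitor of the pathway, ran from 62.2 to 89.5 CPM in WT and was at 135, 133, 145 and 122 CPM in LBRKO (0.94 ± 0.08, adjusted p = 6.8e-12), and the transcription factor gene Etv4 ran from 79.0 to 112 CPM in WT and was at 138, 127, 144 and 134 CPM in LBRKO (0.59), both within 2-fold. Spry4 was at 17.6, 15.7, 42.2 and 21.5 CPM in LBRKO and 5.12 to 29.4 CPM in WT, and its call (1.29 ± 0.28, adjusted p = 0.00053) was lost without LBRKO 3 (0.87) and against WT 5 to 8 (0.77). Egr1, an immediate early gene, spanned 31.8 to 913 CPM in WT and 147 to 1133 CPM in LBRKO and did not pass (1.3, adjusted p = 0.081).

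Among genes that write, erase or recognise DNA methylation, the clearest increase was in Dnmt3l. Its protein has no catalytic activity and stimulates the de novo methyltransferases DNMT3A and DNMT3B. Of 15 genes of the list, 1 was higher and 2 lower against all WT (median -0.01), and 1 higher and none lower against WT 5 to 8 (median -0.10). Dnmt3l ran from 18.3 to 31.9 CPM in WT, with a median of 21.8, and was at 178, 168, 164 and 174 CPM in LBRKO, with no overlap. The log2 fold change was 2.88 ± 0.10 (edgeR, adjusted p = 1.5e-24), or 2.71 ± 0.11 against WT 5 to 8 (adjusted p = 8.84e-22). The increase was also present in the other comparisons of an Lbr disruption: Dnmt3l averaged 113 CPM in QKO against 57.9 CPM in TKO (0.96, adjusted p = 3.5e-08, within 2-fold), and was at means of 146 CPM in WT EpiLCs and 633 CPM in LBRKO EpiLCs (2.12, adjusted p = 1.27e-20).

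RefSeq lists 3 starts of Dnmt3l, on the plus strand of chromosome 10, and their promoters (250 bases before to 50 after the start, GRCm38.p6) are shown because the gene had the highest fold of the genes ranked below. Capitals mark CG, the dinucleotide that DNA methylation acts on.
Dnmt3l start 1, chr10:78042037-78042336: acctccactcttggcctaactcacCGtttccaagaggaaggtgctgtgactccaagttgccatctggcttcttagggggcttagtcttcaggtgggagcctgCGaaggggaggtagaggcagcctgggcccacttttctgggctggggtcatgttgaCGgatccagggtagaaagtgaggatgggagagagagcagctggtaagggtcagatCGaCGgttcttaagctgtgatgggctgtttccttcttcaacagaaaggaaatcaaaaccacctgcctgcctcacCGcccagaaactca
Dnmt3l start 2, chr10:78049592-78049891: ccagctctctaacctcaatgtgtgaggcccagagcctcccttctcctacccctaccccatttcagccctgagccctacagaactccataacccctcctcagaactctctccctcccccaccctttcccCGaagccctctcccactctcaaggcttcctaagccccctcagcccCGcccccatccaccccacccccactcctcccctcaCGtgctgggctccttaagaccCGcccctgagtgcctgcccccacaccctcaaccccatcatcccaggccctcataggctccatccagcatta
Dnmt3l start 3, chr10:78055085-78055384: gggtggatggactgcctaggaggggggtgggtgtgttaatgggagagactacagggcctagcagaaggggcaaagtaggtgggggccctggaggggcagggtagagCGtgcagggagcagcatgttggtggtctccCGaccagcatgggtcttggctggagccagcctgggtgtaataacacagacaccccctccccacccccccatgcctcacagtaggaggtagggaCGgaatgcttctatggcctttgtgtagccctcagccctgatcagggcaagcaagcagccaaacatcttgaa
The windows held 6, 4 and 3 CG, against a median of 7 in the 32851 promoters of the table, of which 43.6%, 31.4% and 23.3% held fewer. The E-box CACGTG, the same on both strands, was in the window of start 2 and is in 7.15% of all promoters. The letters GCGGGA, searched on both strands and found in 20.0% of all promoters, were in none of the windows. Gene counts do not say which start was used.

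The methyltransferases Dnmt1, Dnmt3a and Dnmt3b had log2 fold changes of -0.14, -0.05 and 0.22, and Uhrf1, the factor that brings DNMT1 to replicated DNA, of 0.03. Of the oxygenases that remove methylation, Tet1 and Tet2 were at -0.08 and -0.01, while Tet3, on chromosome 6, ran from 23.7 to 35.1 CPM in WT and was at 66.0, 55.2, 62.7 and 48.1 CPM in LBRKO, without overlap (0.98 ± 0.11, edgeR, adjusted p = 1.77e-09, within 2-fold). Dppa3, which protects against methylation by keeping UHRF1 from chromatin, ran from 17.6 to 35.2 CPM in WT and was at 7.11, 8.05, 11.5 and 16.1 CPM in LBRKO. It was lower against all WT (-1.31 ± 0.19, adjusted p = 1.26e-06) and within 2-fold against WT 5 to 8 (-0.96). Dnmt3c, a methyltransferase of the male germ line, had a median of 0.0276 CPM in WT and no count in LBRKO, which makes it at least 3.61-fold lower, or 3.08-fold against WT 5 to 8, where it did not pass (adjusted p = 0.0578, edgeR).

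Germline and piRNA genes, many of which depend on promoter methylation for their silencing, gave 3 lower and none higher of 19 against all WT, and 2 lower and 2 higher against WT 5 to 8. Piwil2, a piRNA-binding protein, ran from 5.2 to 7.79 CPM in WT and was at 13, 13.1, 12.3 and 11.0 CPM in LBRKO. Dazl, an RNA-binding protein of germ cells, ran from 25.5 to 48.7 CPM in WT and was at 56.5, 63.4, 62.5 and 59.7 CPM in LBRKO. Neither overlapped, with log2 fold changes of 0.94 and 0.72 against all WT, within 2-fold, and 1.05 and 1.06 against WT 5 to 8. The calls against WT 5 to 8 were lost for Piwil2 without WT 8 (0.97) and for Dazl without WT 5 (0.99). The lower genes were weakly expressed: Mael (-1.01), Piwil4 (-1.54) and Tdrkh (-1.07) were all under 2 CPM in WT. The call of Mael was lost against WT 1 to 4 alone (-0.91) and without LBRKO 3 (-0.92), WT 3 (-0.98), WT 6 (-0.97) or WT 8 (-0.96), and that of Tdrkh without LBRKO 3 (-0.90), LBRKO 4 (-0.94), WT 1 (-0.93) or WT 4 (-0.95).

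Ranked by fold among changed genes at 5 CPM or more without overlap, the highest 10 genes were Dnmt3l and 9 others of varied roles. The ranking left out genes with clone, accession or predicted-gene symbols (Gm or Rik) and mitochondrial genes. Pramel6, of a gene family active in germ cells and pluripotent cells, had a narrow spread. It ran from 6.31 to 9.40 CPM in WT and was at 33.2, 31.1, 29.2 and 32.1 CPM in LBRKO (log2 2.03 ± 0.11, edgeR, adjusted p = 5.06e-18). It was also higher in QKO than in TKO (mean of 44.5 CPM, log2 difference of 1.22) and in LBRKO than in WT EpiLCs (3.36). The transcription factor gene Tlx2 was at 11.7, 14.5, 12.8 and 17.7 CPM in LBRKO and 1.06 to 4.77 in WT (2.30 ± 0.29). Tex13b, a germ cell gene on the X chromosome, was at 6.97, 6.0, 6.66 and 7.61 CPM in LBRKO and 0.881 to 1.99 in WT (2.29 ± 0.20), and was higher in LBRKO EpiLCs as well (2.67). The receptor tyrosine kinase gene Epha1 was at 8.56, 8.12, 8.30 and 8.81 CPM in LBRKO and 0.916 to 3.53 in WT (2.11 ± 0.17).

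The remaining 5 were Dab2, an endocytic adaptor of primitive endoderm (2.23), Gpnmb, a transmembrane glycoprotein (2.2), Htr5a, a serotonin receptor (2.17), Bpifb5, of a family of lipid-binding proteins (2.09), and Entrep1, a regulator of endosomal sorting (2.06). All 5 were still over 2-fold higher against WT 5 to 8, at 2.30, 1.85, 1.49, 1.67 and 1.90. Htr5a showed the split of the WT sets most, with 1.70 to 10.4 CPM over all WT, 7.89 to 10.4 CPM in WT 5 to 8 and 23.1 to 30.8 CPM in LBRKO. Between QKO and TKO, Gpnmb, Bpifb5 and Entrep1 were higher as well (1.03, 1.3 and 1.13). Of the 10 genes, Tlx2, Epha1 and Gpnmb lie on chromosome 6.

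The lowest 10 by the same rule opened with Lefty1 and Lefty2. Otx2, a homeobox factor that opens the passage to the primed state, ran from 2.68 to 17.4 CPM in WT and 2.68 to 3.64 CPM in WT 5 to 8, and was at 0.405, 0.644, 0.594 and 0.601 CPM in LBRKO. Its log2 fold change was -3.99 ± 0.47 (edgeR, adjusted p = 7.88e-09) against all WT and -2.49 ± 0.21 against WT 5 to 8. A pair of genes of chromosome segregation followed. Aurkc, a meiotic kinase, was at 0.937, 0.920, 1.08 and 0.651 CPM in LBRKO and 5.32 to 11.2 in WT (-3.23 ± 0.21, adjusted p = 5.33e-16), and Sgo2b, a relative of the protector of centromeric cohesin, was at 1.02, 0.943, 1.04 and 0.601 CPM in LBRKO and 4.26 to 10.9 in WT (-3.01).

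Cyp1a1, the monooxygenase induced by the aryl hydrocarbon receptor, was at 0.980, 1.13, 1.46 and 1.93 CPM in LBRKO and 8.07 to 12.2 in WT (-2.80 ± 0.27). Slc27a2, a transporter and ligase of fatty acids, ran from 13 to 16.5 CPM in WT and was at 1.98, 2.44, 1.85 and 2.23 CPM in LBRKO. Its groups were narrow and far apart (-2.74 ± 0.11, edgeR, adjusted p = 6.02e-22), and it was lower in QKO than in TKO as well (means of 2.11 and 5.86 CPM, -1.45). Ebf1, a B cell factor, was at 1.64, 2.32, 3.33 and 2.40 CPM in LBRKO and 11.6 to 18.7 in WT (-2.59). Clca3b, a calcium-activated chloride channel regulator, was at 0.726 to 1.64 CPM in LBRKO and 4.22 to 7.92 in WT (-2.31). Fgfr2, described above, completes the 10, and all 10 were more than 2-fold lower against WT 5 to 8 too.

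Naive pluripotency genes were little moved. Of 18, none was higher and Dppa3 alone was lower against all WT, and none changed against WT 5 to 8, where 11 had an unadjusted p under 0.05 in edgeR and DESeq2 called 0. The median was nonetheless below that of all genes, at -0.19 and -0.28. At an adjusted p under 0.05 and any fold, 7 were lower and 1 higher against all WT, and 9 lower and none higher against WT 5 to 8. Of all genes tested 11.2% were lower and 12.7% higher by that rule against all WT, and 9.33% and 10.3% against WT 5 to 8. Prdm14, which holds de novo methylation and FGF signalling down in naive cells, ran from 46.1 to 57.7 CPM in WT and was at 32.7, 31.2, 28.9 and 28.6 CPM in LBRKO, with no overlap (-0.81 ± 0.12, edgeR, adjusted p = 7.17e-07). Klf5 ran from 344 to 446 CPM in WT and was at 309, 326, 309.6 and 241 CPM in LBRKO (-0.46). Nanog ran from 709 to 885 CPM in WT, above all LBRKO libraries, and missed the adjusted p against all WT (-0.31, adjusted p = 0.15). Esrrb, Klf4, Tfcp2l1 and Zfp42 did not pass in either comparison.

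None of 7 core pluripotency genes changed in either comparison (3 and 6 with an unadjusted p under 0.05 in edgeR, and 0 by DESeq2). At any fold 2 were higher and 1 lower by the adjusted p against all WT, and 2 and 3 against WT 5 to 8. Sox2 ran from 287 to 353 CPM in WT and was at 217, 215, 250.1 and 213 CPM in LBRKO, below every WT library (-0.53 ± 0.09, edgeR, adjusted p = 6.95e-06). Utf1, a chromatin factor of pluripotent cells, ran from 38.6 to 58.4 CPM in WT and was at 85.4, 91.0, 76.5 and 81.4 CPM in LBRKO (0.85 ± 0.09). The RNA-binding protein gene Lin28a was at 274 to 297 CPM in LBRKO and 124 to 253 in WT (0.69), and Pou5f1 overlapped (329 to 492 CPM in WT).

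Genes of the formative and primed epiblast were on balance below WT. Of 18, 1 was higher and 2 lower against all WT (median -0.55), and none was higher and 5 lower against WT 5 to 8 (median -0.79). Fgf5 and Otx2 were lower in both. Against WT 5 to 8 the neural and epiblast factor Sox3 (-1.34), the cadherin gene Cdh2 (-1.24) and the homeobox gene Nkx1-2 (-1.13) were lower as well. Cdh2 was at 4.32, 4.57, 5.52 and 4.71 CPM in LBRKO, 10 to 12.5 CPM in WT 5 to 8 and down to 3.55 CPM in WT 1 to 4, and so overlapped with the full WT group. Pou3f1, a POU factor of the same state, went the other way and was within 2-fold (0.86 and 0.66).

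**Figure D3:**
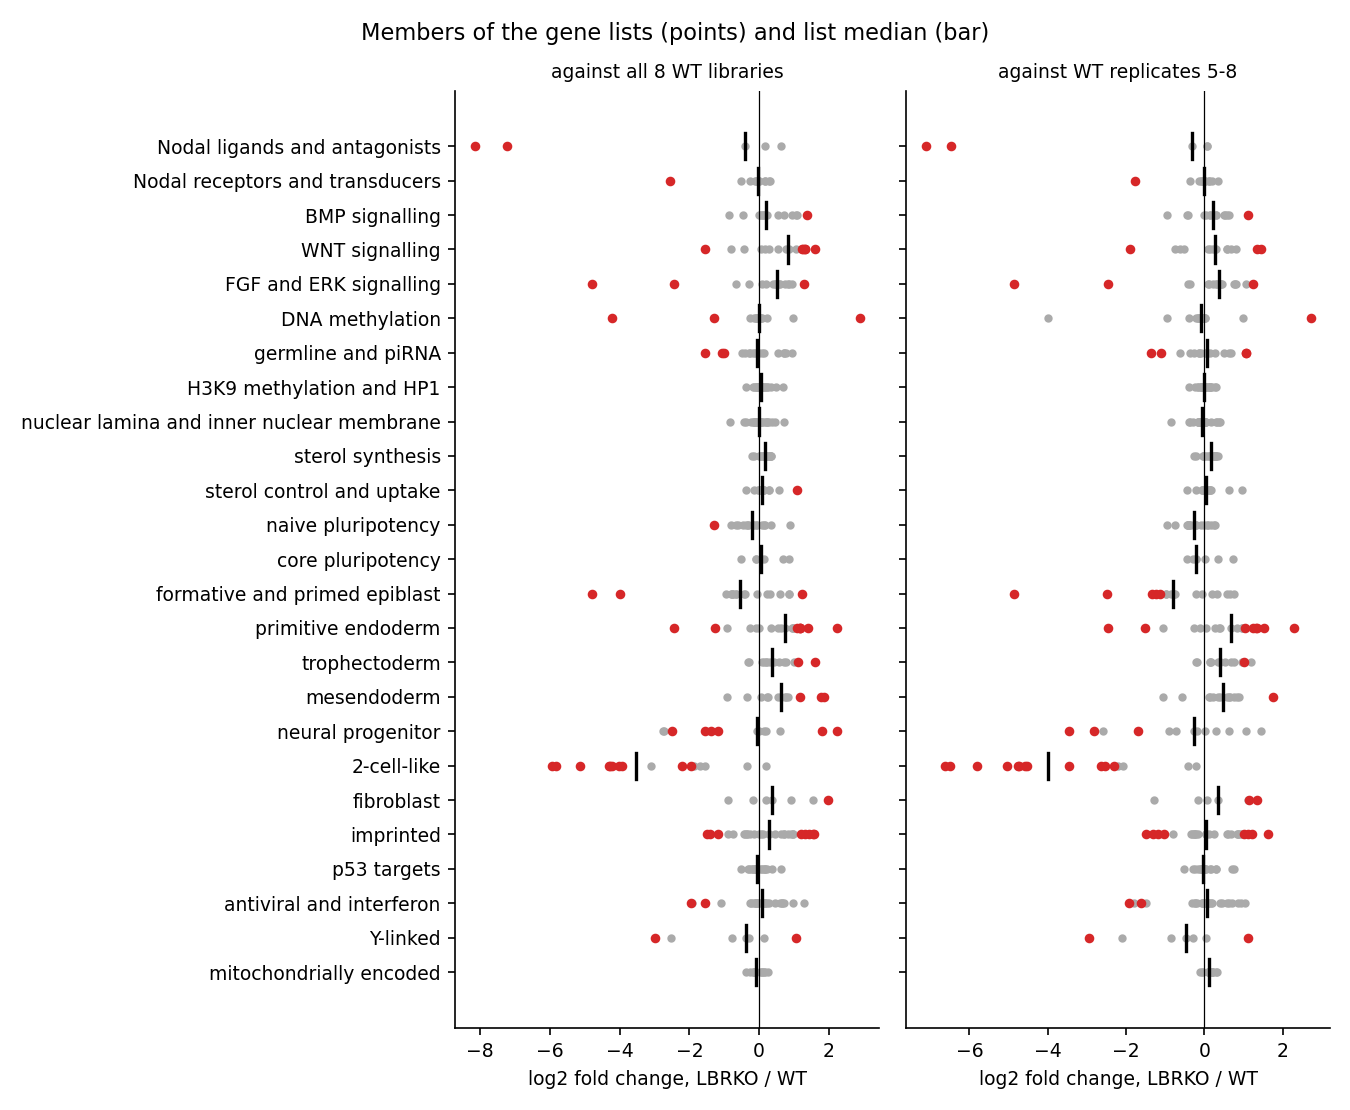
Log2 fold change of each tested member of the gene lists in LBRKO against all WT (one point a gene). The 2-cell-like genes lie lowest, with a median of -3.52, and the median of all 23399 genes tested is 0.02.

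Markers of other cell types were read in the same way. Of 19 primitive endoderm genes tested, 6 were higher and 2 lower in each comparison (medians 0.75 and 0.68). Higher in both comparisons were 4 genes, and lower in both were 2. The lower genes were Fgfr2 and the endocytic receptor gene Cubn (-1.25, and -0.89 against WT 1 to 4 alone). The collagen IV genes of the basement membrane were higher: Col4a1 was at 19.6, 18.7, 14.5 and 15.8 CPM in LBRKO and 5.96 to 9.92 in WT (1.17 ± 0.11, edgeR, adjusted p = 1.31e-11), and Col4a2 at 9.67, 8.71, 6.30 and 7.51 CPM against 2.18 to 4.34 (1.16, and 0.99 against WT 1 to 4 alone). Of the transcription factors, Hnf4a was at 2.07, 2.00, 2.91 and 2.08 CPM in LBRKO and 0.678 to 1.04 in WT (1.40 ± 0.20). Gata4 was at 11.6, 10.8, 10.1 and 10.6 CPM in LBRKO and 4.83 to 6.44 in WT, within 2-fold against all WT (0.96) and over it against WT 5 to 8 (1.03), the latter lost without LBRKO 1 (0.98), WT 6 (0.97) or WT 8 (0.98). The early factors of the lineage were low in both genotypes: Gata6 was at 0.277 to 0.751 CPM in LBRKO and 0.109 to 0.506 in WT, and Sox17 at 0.368 to 1.04 and 0.217 to 0.863, and neither changed against all WT. Gata6 was higher against WT 5 to 8 (1.31 ± 0.36, edgeR, adjusted p = 0.0069), a call lost with only the 12 libraries fitted. Summed over the list, CPM were 1292 to 1583 in LBRKO and 1383 to 1631 in WT. The part of such cells in the results was not tested.

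Of 14 trophectoderm genes, 2 were higher against all WT and 1 against WT 5 to 8, and none lower (medians 0.36 and 0.40). Krt8, a keratin of simple epithelia, ran from 24.8 to 37.9 CPM in WT and was at 63.3, 67.7, 64.5 and 67.4 CPM in LBRKO, with no overlap (1.10 ± 0.08, edgeR, adjusted p = 5.55e-14, and 0.95 against WT 5 to 8). Its partner Krt18 was at 6.50, 5.93, 7.58 and 8.19 CPM in LBRKO and 2.95 to 6.25 in WT (0.71, and 1.02 against WT 5 to 8, lost without LBRKO 3, LBRKO 4 or WT 5). Cdx2, the lineage factor, was at 2.25 to 3.68 CPM in LBRKO and 0 to 2.83 in WT, and its call (1.59, adjusted p = 0.026) was lost against WT 5 to 8 (0.67), under DESeq2, and without LBRKO 1 (1.57), LBRKO 3 (1.51) or LBRKO 4 (1.49). The summed level of the list was 251 to 268 CPM in LBRKO and 195 to 218 in WT, without overlap.

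Of 14 mesendoderm genes 3 were higher against all WT and 1 against WT 5 to 8, and none lower (medians 0.62 and 0.48). T, the brachyury factor and a target of WNT, ran from 0.217 to 4.41 CPM over all WT and from 3.46 to 4.41 in WT 5 to 8, and was at 6.99, 7.33, 7.0 and 7.61 CPM in LBRKO. It was higher by 1.77 ± 0.46 (edgeR, adjusted p = 0.0037), a call lost with only the 12 libraries fitted and against WT 5 to 8 (0.89). The summed level was 36.8 to 39.7 CPM in LBRKO and 19.8 to 26.2 in WT. Fibroblast genes showed 1 higher of 7 against all WT and 2 against WT 5 to 8. Col1a2, on chromosome 6, was at 1.66, 1.91, 2.02 and 3.33 CPM in LBRKO and 0.125 to 0.949 in WT (1.98). The list summed to 9.68 to 10.3 CPM in LBRKO and 5.32 to 7.04 in WT.

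Neural genes moved both ways, with 2 higher and 4 lower of 13 against all WT and 3 lower and none higher against WT 5 to 8 (medians -0.07 and -0.28). Pax6, a factor of eye and forebrain, ran from 0.863 to 1.78 CPM in WT and was at 0.107, 0.253, 0.255 and 0.275 CPM in LBRKO (-2.51 ± 0.29). The cytoskeletal genes Map2 and Nes were lower at higher levels. Map2 ran from 6.63 to 11.5 CPM in WT and was at 3.92, 3.22, 3.54 and 2.68 CPM in LBRKO (-1.55 ± 0.16), and it was also lower in QKO than in TKO (-1.63) and in LBRKO EpiLCs (-1.22). Nes was at 17.0, 16.5, 14.3 and 11.0 CPM in LBRKO and 24.7 to 53.7 in WT (-1.38 ± 0.16, and -0.89 against WT 5 to 8).

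The 2-cell-like genes are switched on in rare cells of mES cultures that resemble the totipotent embryo. Of 16 tested, 10 were lower and none higher against all WT, and 12 lower against WT 5 to 8. The median was -3.52 and -4.0, or -2.11 and -2.67 with the 5 genes at 0 in LBRKO set to the limit of 3 counts. Zscan4d, a telomere regulator, ran from 0.0362 to 0.584 CPM in WT (median 0.332) and was at 0.0213, 0, 0 and 0.0501 CPM in LBRKO (-3.93 ± 0.73, edgeR, adjusted p = 7.13e-05). Zscan4a had no count in LBRKO and was at least 13.2-fold lower, or 19.8-fold against WT 5 to 8, and Zscan4e at least 12.0-fold and 18.1-fold. WT 5 to 8 held 58 of the 66 counts of Zscan4a in WT and 53 of the 60 of Zscan4e, so WT 1 to 4 were themselves near 0. Against WT 1 to 4 alone the calls of Zscan4c (-2.01), Zscan4f (-3.33), Tcstv3 (-1.72) and Usp17la (-1.66) were lost. The ubiquitin peptidase genes Usp17lb and Usp17lc were at -4.28 and -4.22. Usp17la (-2.21) and Usp17le (-1.95) were less stable, and Usp17le stood at 0.059 against WT 1 to 4 alone. The Usp17la call was lost without LBRKO 1 (-1.82), LBRKO 2 (-2.15), LBRKO 3 (-1.82) or WT 5 (-1.97), and the Usp17le call without LBRKO 1 (-1.55), LBRKO 2 (-1.59) or WT 8 (-1.48).

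Members of the Zscan4 and Usp17l families share sequence, so that reads may be split among copies and single members are uncertain. The members of both families were all under 1 CPM in these libraries, and the list summed to 3.22 to 7.0 CPM in LBRKO and 5.68 to 12.0 CPM in WT, with overlap, because Zfp750, at 2.94 to 6.75 CPM in LBRKO and 4.11 to 8.22 CPM in WT, held most of it and did not pass (-0.36). In EpiLCs the same direction was found, with Zscan4d at means of 3.62 CPM in WT and 0.282 CPM in LBRKO (-3.65, edgeR, adjusted p = 3.07e-08). Between QKO and TKO the list lay in the other direction, with a median of 1.53, and none of its genes changed.

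LBR is itself a sterol reductase, and genes of sterol synthesis were read for this reason. None of 19 changed in either comparison (9 and 12 with an unadjusted p under 0.05 in edgeR, 0 by DESeq2). At any fold 4 were higher and none lower by the adjusted p against all WT (12.7% and 11.2% of all genes tested). Against WT 5 to 8 there were 7 higher and 1 lower (10.3% and 9.33% of all genes). The shift was small and mostly upward: 17 lay above 0 against all WT and 15 against WT 5 to 8, with medians of 0.16 and 0.18, and the summed level was 2895 to 3056 CPM in LBRKO and 2558 to 2812 CPM in WT, without overlap. Tm7sf2, which encodes the other enzyme of the same step, ran from 27.9 to 40.3 CPM in WT and was at 44.6, 44.6, 43.0 and 46.2 CPM in LBRKO (0.35 ± 0.12, edgeR, adjusted p = 0.0264, and 0.25 with 0.0691 against WT 5 to 8). Lss, which closes the sterol rings, was at 134 to 156 CPM in LBRKO and 112 to 125 in WT (0.31 ± 0.10). Of 16 genes of sterol control and uptake, Abca1, the exporter of cholesterol, was higher against all WT. It ran from 52.0 to 86.6 CPM in WT and was at 171, 164, 147 and 145 CPM in LBRKO, with no overlap (1.10 ± 0.10, adjusted p = 1.49e-11, and 0.95 against WT 5 to 8). None of the 16 changed against WT 5 to 8 (5 with an unadjusted p under 0.05, 0 by DESeq2).

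RNAs of other proteins of the nuclear periphery stayed within 2-fold. None of 26 genes of the lamina and inner nuclear membrane changed (13 and 11 with an unadjusted p under 0.05 in edgeR, 0 by DESeq2, medians of -0.00 and -0.07). At any fold 5 were higher and 5 lower by the adjusted p against all WT, where 12.7% and 11.2% of all genes tested were. Lmna was at 76.7, 78.5, 82.2 and 79.9 CPM in LBRKO and 45.1 to 71.5 in WT, above every WT library and within 2-fold (0.46). Lmnb1 was at 538, 538, 544 and 499 CPM in LBRKO and 481 to 546 in WT (0.04), and Lmnb2, Emd and Tmpo were between -0.04 and 0.07. None of 26 genes of H3K9 methylation and HP1 changed either (9 and 8 with an unadjusted p under 0.05, 0 by DESeq2, medians of 0.04 and -0.00). At any fold 5 of them were higher and 1 lower by the adjusted p against all WT, and 2 and 2 against WT 5 to 8. Cbx3, which encodes HP1γ, was at 0.34, and the H3K9 methyltransferase genes Setdb1 and Ehmt2 were at 0.03 and -0.09.

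Of 20 p53 targets none changed in either comparison (8 and 8 with an unadjusted p under 0.05 in edgeR, 0 by DESeq2), and none of 13 mitochondrially encoded genes did (0 and 0, and 0 by DESeq2). At any fold 2 p53 targets were higher and 2 lower by the adjusted p against all WT, and 3 and 3 against WT 5 to 8. Of 27 antiviral and interferon genes 2 were lower and none higher in both comparisons. They were Rsad2, an antiviral enzyme, at 0.0460 to 0.150 CPM in LBRKO and 0.181 to 0.561 in WT (-1.95), and Ifih1, a sensor of double-stranded RNA, at 0.170 to 0.275 CPM and 0.446 to 0.964 (-1.55). Sting1, the adaptor of cytosolic DNA sensing, was at 21.5, 21.5, 21.1 and 20.8 CPM in LBRKO and 8.58 to 12.2 in WT, a gap far over the spread though within 2-fold (0.96). Of 7 Y-linked genes, the zinc finger gene Zfy1 was lower, at 0.149, 0.207, 0.0637 and 0.125 CPM in LBRKO and 0.752 to 1.37 in WT (-2.98 ± 0.28), and the peptidase gene Usp9y was higher, at 1.15 to 1.90 CPM and 0.393 to 1.12 (1.07). The Usp9y call was lost without LBRKO 4 (0.92), WT 4 (0.98) or WT 7 (0.98). The 7 genes had medians of -0.39 and -0.47, and the 14 tested genes of the Y chromosome of -0.32 and -0.38. At any fold 4 were lower and 1 higher by the adjusted p against all WT (11.2% and 12.7% of all genes tested). Their summed level was 131.6 to 140.28 CPM in LBRKO and 140.33 to 184.3 CPM in WT. Both genotypes thus carried Y-linked RNA, with a lower sum in LBRKO. Whether this follows the part of cells with a Y chromosome was not tested.

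Imprinted genes are expressed from 1 parental copy, in many cases under control of DNA methylation. Of 29 tested, 5 were higher and 3 lower against all WT, and 4 and 4 against WT 5 to 8 (medians 0.28 and 0.04). Peg10, a gene derived from a retrotransposon, and its neighbour Sgce share a promoter region on chromosome 6. Peg10 ran from 49.5 to 136 CPM in WT and was at 174, 154, 365 and 409 CPM in LBRKO (1.56 ± 0.24, edgeR, adjusted p = 3.21e-06). Sgce ran from 1.65 to 2.95 CPM in WT and was at 4.43, 3.98, 7.45 and 11.0 CPM in LBRKO (1.43 ± 0.19). Both were highest in LBRKO 3 and 4, and against WT 5 to 8 the calls were lost without LBRKO 4 (0.83 and 0.86) and, for Peg10, without LBRKO 3 (0.93). Mest, also on chromosome 6, was at 217 to 236 CPM in LBRKO and 59.5 to 121 in WT (1.32, and 0.95 against WT 5 to 8). Nnat (1.21) and Dlk1 (1.54) were the other higher genes.

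The lower imprinted genes were H19 (-1.50), Usp29 (-1.17) and Slc38a4, an amino acid transporter. Slc38a4 ran from 5.01 to 8.17 CPM in WT and was at 2.83, 2.64, 3.01 and 2.25 CPM in LBRKO (-1.41), and it was lower in QKO than in TKO too (-2.49). Grb10, an adaptor that limits growth factor signalling, had the narrowest groups: it ran from 88.3 to 107 CPM in WT and was at 52.4, 51.0, 53.4 and 51.8 CPM in LBRKO (-0.90 ± 0.07, within 2-fold).

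Genes of chromosome 6 were higher in LBRKO as a whole. The median log2 fold change of its 1167 tested genes was 0.38 against all WT, a median fold of 1.3, and 0.375 against WT 5 to 8, while all other autosomes lay between -0.087 and 0.093. In the 4 LBRKO libraries the median of 482 genes of the chromosome was 0.370, 0.325, 0.373 and 0.316 above the WT mean, and in the 8 WT libraries it lay between -0.041 and 0.034. Chromosome 6 took 6.64% to 6.71% of gene counts in LBRKO and 5.22% to 5.37% in WT. Chromosome 8 took 6.07% to 6.20% and 5.83% to 5.97%, with a median of 0.093, and the X chromosome had a median of -0.085. Between QKO and TKO the median of chromosome 6 was 0.02.

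On chromosome 6, 114 genes were higher (9.77%) and 32 lower (2.74%) against all WT. With the chromosome left out, 602 genes were higher and 729 lower, and with each chromosome's median subtracted there were 630 and 777. Both alternatives were chosen after seeing the data. Of the genes named above, Tet3, Dppa3, Nanog, Cbx3, Peg10, Sgce, Mest, Tlx2, Epha1, Gpnmb and Col1a2 lie on chromosome 6. The log2 fold changes of Tlx2, Epha1, Gpnmb and Col1a2, from 1.98 to 2.30, lay far above the median of the chromosome, and those of Tet3, Mest, Sgce and Peg10, from 0.98 to 1.56, also lay above it. Cbx3, at 0.34, lay near the median, and Dppa3 and Nanog lay on the other side of 0. Dnmt3l, Lefty1, Lefty2 and Fgfr2 lie on other chromosomes.

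Transposable elements (TEs) were read as families from a table that includes reads with many alignments. Of 1142 families tested, 7 changed against all WT (0.613%), 6 higher (0.525%) and 1 lower (0.0876%), 2 against WT 5 to 8 (0.175%), and 48 against WT 1 to 4 (4.2%), 47 of them higher (4.12%). At any fold 100 families passed the adjusted p against all WT (8.76%) and 33 against WT 5 to 8 (2.89%), and the libraries did not overlap for 21 (1.84%) and 37 (3.24%). The 6 higher families, LTR52-int, MER70C, MamGypLTR3, MamRep564, X11_DNA and X7D_LINE, were at no more than 1.15 CPM, and none but MamGypLTR3 changed against WT 5 to 8. Only the call of X11_DNA, a DNA transposon, outlasted leaving out each library: those of LTR52-int and MamGypLTR3 were lost without LBRKO 3 (1.27 and 0.99), and those of MER70C, MamRep564 and X7D_LINE without any of 5, 6 and 9 libraries. The lower family was RLTR13G, a long terminal repeat of an endogenous retrovirus. It ran from 74.6 to 165.7 CPM in WT (74.6 to 95.7 in WT 5 to 8), and was at 60.8, 53.4, 60.1 and 53.8 CPM in LBRKO, with no overlap (-1.07 ± 0.27, edgeR, adjusted p = 0.00276). The call was lost without WT 1 (-0.99) and against WT 5 to 8 (-0.57). Against WT 5 to 8 the lower family was the internal part of ERVB4_2-I_MM, at 5.91, 8.41, 5.47 and 6.68 CPM in LBRKO and 12.6 to 14.2 in WT 5 to 8 (-1.01 ± 0.11, adjusted p = 7.23e-09). That call was lost under DESeq2 and RLE scaling (-1.0 each) and without LBRKO 1 (-0.96), LBRKO 3 (-0.93), WT 6 (-0.98) or WT 7 (-0.99), and between QKO and TKO the family differed by 2.60 in the other direction, where 51 families changed (4.47%), all higher.

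Most families lay slightly above 0. Of the 1142 families 1013 were above 0 against all WT and 924 against WT 5 to 8. The median was 0.30 and 0.18, and it was near this value in every quartile of expression (0.35, 0.33, 0.27 and 0.30). By class the median was 0.37 for 273 DNA transposons, 0.34 for 189 LINEs, 0.33 for 34 SINEs and 0.26 for 603 LTR families. The young LINE-1 families, which still move in the mouse genome, had a median of -0.22 against all WT and -0.32 against WT 5 to 8 over 8 families, none of which changed (4 and 4 with an unadjusted p under 0.05 in edgeR, 0 by DESeq2). At any fold 3 were lower and none higher by the adjusted p against all WT, and 4 and none against WT 5 to 8. L1MdTf_I ran from 377.6 to 700.4 CPM in WT and was at 353, 350.4, 351 and 278 CPM in LBRKO (-0.49), and L1MdGf_I ran from 75.2 to 157 CPM and was at 59.1, 58.1, 74.4 and 64.4 CPM (-0.58), both without overlap. L1MdA_I differed by -0.12.

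The ETn and MusD elements, endogenous retroviruses that mES cells transcribe at high levels, had a median of -0.40 and -0.53 over 5 families, none of which changed (5 and 5 with an unadjusted p under 0.05 in edgeR, 0 by DESeq2). ETnERV-int ran from 1802 to 2131 CPM in WT and was at 1472, 1413, 1447 and 1447 CPM in LBRKO (-0.46 ± 0.05, edgeR, adjusted p = 3.6e-09). MMETn-int ran from 2229 to 2905 CPM in WT and was at 1970.2, 1777, 1886 and 1902 CPM in LBRKO (-0.50 ± 0.06). Both groups were narrow and did not overlap. RLTR45-int, a partner of the ERVB4 elements, was at 34.6, 37.2, 29.8 and 29.1 CPM in LBRKO and 39.5 to 63.8 in WT (-0.65), and higher by 2.79 in QKO than in TKO. All of these differences were within 2-fold against all WT.

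In the other lists no family changed against all WT, and none but ERVB4_2-I_MM against WT 5 to 8. The 25 IAP families, targets of H3K9 methylation, had a median of 0.03 (5 and 5 with an unadjusted p under 0.05 in edgeR, 0 by DESeq2), and IAPEz-int was at -0.05. The 7 MERVL and MT2 families, which mark 2-cell-like cells, had a median of 0.20 (0 and 0, and 0 by DESeq2), with MERVL-int at 0.07. The 12 SINE B1 and B2 families had a median of 0.30 (8 and 0, and 0 by DESeq2), and the 3 satellites of 0.20 (1 and 1, and 0 by DESeq2), with GSAT_MM, the major satellite, at 0.20 and MMSAT4 at -0.51. The 11 ERVB4 and RLTR45 families had a median of -0.08.

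The share of counts on TEs was 8.39%, 7.71%, 8.71% and 9.88% in LBRKO 1 to 4. In WT it lay between 6.73% and 7.71% in 7 libraries and at 9.87% in WT 7, and the groups overlapped. The mean was 1.08 percentage points higher in LBRKO than in all WT (two-sided exact permutation test, p = 0.0909, adjusted p = 0.364 over 8 tests) and 0.69 points higher than in WT 5 to 8 (p = 0.343). For SINEs the difference was 0.51 points (p = 0.0747, adjusted p = 0.364), for LINEs 0.17 points (p = 0.166) and for LTR elements 0.12 points (p = 0.477), by the same exact permutation test. The smallest p these splits allow is 0.00202 against all WT and 0.0286 against WT 5 to 8. Without WT 7 the difference was 1.40 points (exact permutation test, p = 0.00303, adjusted p = 0.00808), so that this library decides the call.

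**Figure D4:**
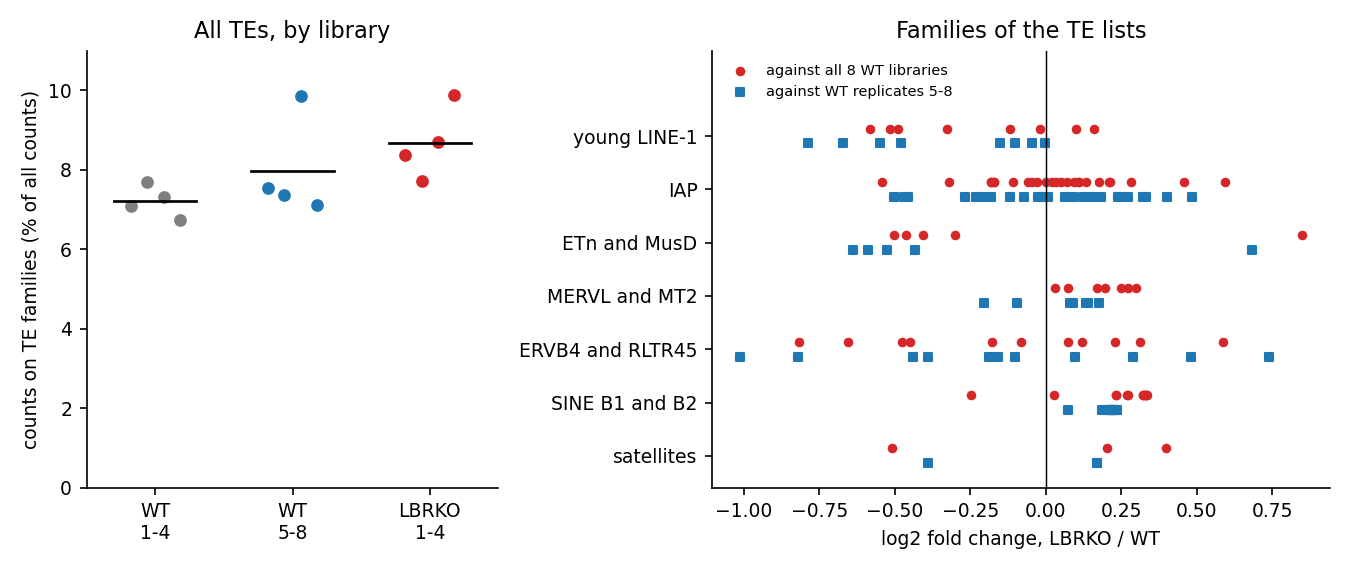
Left, percent of counts on TE families by library in WT 1 to 4, WT 5 to 8 and LBRKO, with bars at the means; WT 7 lies at 9.87%, level with the highest LBRKO library. Right, log2 fold change in LBRKO of the families of 7 TE lists against all WT (red) and WT 5 to 8 (blue); ETn and MusD families and young LINE-1 families have medians of -0.40 and -0.22.

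The effect of an Lbr disruption on the lamin-null background was measured by QKO against TKO, which shares no library with LBRKO against WT. There 1452 genes changed (6.21%), 956 higher (4.09%) and 496 lower (2.12%). Shared with the LBRKO lists were 107 higher genes, 14.9% of those higher in LBRKO and 11.2% of those higher in QKO, and 69 lower genes, 9.07% and 13.9%. With LBRKO against WT 5 to 8 the shared genes were 63 higher and 57 lower. In opposite directions were 22 genes higher in LBRKO and lower in QKO and 88 lower in LBRKO and higher in QKO, and against WT 5 to 8 these numbered 35 and 96. Of the genes with values above, Lefty1, Otx2, Fgfr2, Slc27a2, Map2, Slc38a4, Pramel6, Gpnmb, Bpifb5 and Entrep1 changed the same way in QKO as in LBRKO against either WT set, and Bmp4, Cdx1 and Cdx2 as in LBRKO against all WT. Zfy1 changed in opposite directions (1.65 between QKO and TKO), while Capn2 differed by -0.04 and Lefty2 by -0.08. The 14 tested genes of the Y chromosome had a median of 0.98 between QKO and TKO. Whether Zfy1 follows the part of cells with a Y chromosome was not tested. LBRKO and TKO mES cells, both without WT libraries in the contrast, differed in 3155 genes (13.5%), 1647 higher (7.04%) and 1508 lower (6.44%) in LBRKO.

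In EpiLCs, LBR loss changed 1327 genes (5.67%), 712 higher (3.04%) and 615 lower (2.63%). Of these 96 of the higher genes were also higher in mES cells (13.4% of the mES list and 13.5% of the EpiLC list) and 159 of the lower genes also lower (20.9% and 25.9%). The interaction term, which tests whether the effect differs between the stages, called 1405 genes (6%), 731 with the higher effect in EpiLCs (3.12%) and 674 with the lower (2.88%). Among the 1477 genes changed in mES cells it called 535, of which 273 were genes higher in mES cells with a lower effect in EpiLCs and 255 were genes lower in mES cells with a higher effect in EpiLCs. The mES effect that chose these genes enters the difference with the opposite sign, so this direction follows in part from the choice. Dnmt3l, Pramel6, Tex13b and Map2 kept their direction at both stages, and Fgfr2, Dab2 and Tlr5 did not respond alike, with interaction terms of 2.87, -2.79 and 2.31.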

How the data were processed

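Total RNA of all 40 libraries was read from deposited tables of raw counts per gene and per TE family. The authors trimmed reads (cutadapt 2.5), mapped them to GRCm39 (STAR 2.7.10a, SAMtools 1.10) and counted them (featureCounts 1.6.4 for genes; TE families with multiple alignments allowed). Overlapping genes are uncertain because the strand setting is not given in the sources used here, and so are multigene families. Counts of single TE copies were not used. Gene positions are the deposited spans, while symbols, gene types and the position of Lbr exon 2 are from GENCODE M39. Of 56748 identifiers 56017 were found there, 55937 within 100000 bp of the deposited span.

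Counts were tested with edgeR 4.0.16 in R 4.3.3 (limma 3.58.1): TMM scaling, filterByExpr, and a quasi-likelihood test with a mean for each of 8 groups over the 40 libraries, or with WT split into replicates 1 to 4 and 5 to 8. A feature changed at a Benjamini-Hochberg adjusted p under 0.05 and a fold over 2. TE families were fitted together with genes. TE shares were compared by exact permutation tests. Errors of log2 fold changes are SE, taken as the absolute log2 fold change over the square root of F of the quasi-likelihood test. The n is 4 for LBRKO and 8 for all WT, or 4 for WT 5 to 8. Alternatives were DESeq2 1.42.0, RLE scaling, no filter on low counts, the 12 libraries alone, either WT set, a replicate block and leaving out each library. The fit was tested on simulated data.

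Named genes were the targeted genes, list members and genes within 2 Mb of Lbr. Added to them were the 10 highest and lowest by fold without overlap at 5 CPM or more. That ranking left out clone, accession, predicted-gene (Gm or Rik) and mitochondrial symbols. Named TE families were list members and the 5 highest and lowest changed at 1 CPM. The other changed families were added after their values were seen. Members and lists were chosen with earlier results of these data known, and are described by counts and medians with no test of a list. The share of all genes or families with an unadjusted p under 0.05 is not given here, so list counts by that rule have no background beside them. Some genes of the lists and near Lbr are not reported here.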

Additional observations from a re-analysis of the deposited data

Results flagged for a closer look

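Within the groups of 4 or 8 libraries, 6 of 70 sets of values held a library set apart from the others by Dixon's criterion, which chance alone does for about 1 in 20. WT 7 stood apart in 5 of them: Gpnmb was at 5.91 CPM there, and the share of counts was 9.87% on all TEs, 1.59% on LINEs, 4.16% on SINEs and 2.5% on LTR elements. LBRKO 4 stood apart with the lowest level of Lmnb1, 499 CPM.

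For 17 of the 31 genes examined, the effect of LBR loss differed between EpiLCs and mES cells by the edgeR interaction term (EpiLC effect minus mES effect, log2, adjusted p under 0.05 and a difference over 2-fold). For 16 of these the difference was opposite to the effect in mES cells, as the choice of genes by that effect favours. Among genes lower in LBRKO mES cells it was 7.54 for Lefty1, 6.96 for Lefty2, 4.82 for Gm57186, 3.04 for Otx2, 3.00 for Sgo2b, 2.87 for Fgfr2, 2.5 for Ebf1, 2.43 for Cyp1a1, 2.32 for Slc27a2, 2.29 for Clca3b, 2.27 for Aurkc and 1.35 for Ephx1. Among genes higher in LBRKO mES cells it was -2.79 for Dab2, -2.79 for Gpnmb, -2.32 for Epha1 and -1.32 for Bpifb5. Tlr5 was higher at both stages and more so in EpiLCs, with a difference of 2.31.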

How the results depend on the processing

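The numbers of changed genes against all WT moved by over 1.5 times with a replicate block (1171 higher and 1286 lower) and against WT 1 to 4 alone (1322 and 1252). Replicate numbers 5 to 8 occur only in WT, so the block fit compares LBRKO with WT mainly within replicates 1 to 4. These 2 alternatives are therefore not separate. They stayed within 1.5 times with DESeq2, RLE scaling, no filter and the 12 libraries alone (501 to 721 higher and 576 to 838 lower). Leaving out each library gave 548 to 991 higher genes and 679 to 1149 lower genes against all WT (1149 without LBRKO 2), and 503 to 765 and 602 to 659 against WT 5 to 8. It gave 1411 to 1652 higher and 1297 to 2012 lower for LBRKO against TKO, 753 to 972 and 471 to 504 for QKO against TKO, and 686 to 1019 and 569 to 668 for the difference between stages.

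Higher TE families against all WT numbered 3 with the 12 libraries alone, 30 with a replicate block, 1 against WT 5 to 8 alone, 47 against WT 1 to 4 alone, and 3 to 18 with each library left out (18 without WT 7). The lower count ranged from 0 (without WT 1) to 1. Against WT 5 to 8, higher families numbered 0 without a filter and 0 to 9 with each library left out, and lower families 0 with DESeq2, RLE scaling or no filter and 0 to 2 with each library left out. The difference in TE share (percentage points, all TEs) ranged from 0.674 to 1.40 against all WT and from 0.291 to 1.32 against WT 5 to 8 with each library left out. For LINEs these ranges were 0.116 to 0.238 and 0.000616 to 0.214, for SINEs 0.338 to 0.641 and 0.330 to 0.816, and for LTR elements 0.0636 to 0.208 and -0.0973 to 0.161. Against WT 1 to 4 alone the differences were 1.46 for all TEs, 0.255 for LINEs and 0.510 for SINEs (exact permutation test, adjusted p = 0.0381 each). Without WT 7 the LINE and SINE differences of 0.238 and 0.641 passed too (adjusted p = 0.00808). Of single genes and families called changed in the main fit or in the alternative, Usp17le alone changed its sign, to 0.059 against WT 1 to 4 alone. Sign changes of genes called in neither were not counted. The cause of these shifts was not tested.

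Replicate numbers did not pair the libraries: deviations of same-numbered LBRKO and WT libraries correlated at -0.08, 0.04, -0.26 and -0.02, and no library correlated best with its own number, and beyond the counts above the block ended the calls against all WT of Susd4 (0.98), Mael (-0.99), Usp9y (0.997) and Usp17le (-1.76). For WT 5 to 8, no paired analysis was possible because these libraries share no replicate number with LBRKO. WT and LBRKO come from 1 line, and the list members without a count in LBRKO had 5 to 66 counts over all WT libraries.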

Other observations

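Within LBRKO, several genes divided libraries 1 and 2 from libraries 3 and 4. The following genes were picked after their values were seen, and no test was made between the libraries. Lbr itself was at 274 and 253 CPM in LBRKO 1 and 2 and at 145 and 162 CPM in LBRKO 3 and 4. Zfp42, a naive marker, was at 442 and 415 CPM in libraries 1 and 2, above the WT range of 278 to 376, and at 266 and 271 CPM in libraries 3 and 4, below it. Lama1, a laminin gene of primitive endoderm, was at 241 and 218 CPM against 150.4 and 146. In the other direction, Id2, an inhibitor of differentiation factors, was at 5.88 and 5.03 CPM in libraries 1 and 2 and at 20.9 and 23.3 CPM in libraries 3 and 4, with WT at 4.38 to 16.9. Peg10, Sgce and Fgfr2 divided in the same way. Capn2, Dnmt3l and Grb10, by contrast, were level over the 4 libraries. The labels do not give the clone of a library, and whether clones account for the division was not tested.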
